A study of Rattus norvegicus with 64 samples.

Results

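The genes described here encode sialyltransferases, among them the enzymes that make polysialic acid, or neural immunoglobulin adhesion molecules, among them its main carrier. The list was set by gene name and holds 10 genes. Of these, 9 had a row among the 17260 genes of the count files, and all 9 were among the 12521 genes that passed the filter on low counts. They were the sialyltransferase genes St8sia1, St8sia2, St8sia3, St8sia4 and St8sia5, the neural cell adhesion molecule genes Ncam1 and Ncam2, and the L1 family genes L1cam and Nrcam. Chl1, also on the list, was not analysed here. St8sia2 reached no more than 10 counts in any library of the older ages, so it passed the filter through the younger ages, where it was high.

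RNA came from the entorhinal cortex of untreated Long Evans rats, cut into horizontal slices and dissected by hand under a microscope. Each of 64 samples was medial (MEC) or lateral (LEC) entorhinal cortex, either layer II (LII) or layers III to VI together (LDeep), at postnatal day 2 (P2), P9, P23 or P45. The 16 groups formed by region, layer and age held 5 samples each for P2, 3 each for P23 and 4 each for P9 and P45. The labels give neither sex nor litter, and no agent or engineered allele. Samples of an age share replicate numbers across region and layer, which makes 16 sets of 4 samples, but the labels do not say that a number marks 1 animal, and p-values measure the spread between these samples. P2 and P9 together are called younger, and P23 and P45 older. Because the tissue was sequenced in bulk, fewer cells of a type and less RNA per cell cannot be told apart in any value below.

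Between 3894334 and 11439143 read pairs per sample were assigned to genes (median 7569157.5), so that 1 counted pair was worth 0.0874 to 0.2568 CPM, the unit of counts scaled to the total of a library. No 2 replicates of a group held identical values. Levels are given as log2 CPM, computed with a prior count of 2, which makes values near or below 0 the region where a gene is hardly counted. Differences are log2 fold changes (LFC) with their standard error (SE) from edgeR's quasi-likelihood test over all 64 samples, and a gene was called when its Benjamini-Hochberg adjusted p over the 12521 genes was below 0.05.

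Polysialic acid is a long negatively charged sugar chain that is built mainly on the NCAM protein encoded by Ncam1. The chain weakens adhesion between membranes, and in the brain it is best known from migrating neurons, growing axons and young synapses. St8sia2 and St8sia4 encode the polysialyltransferases that polymerise it. St8sia3 encodes an enzyme that adds shorter sialic acid stretches to glycoproteins and glycolipids, St8sia1 encodes the synthase of the ganglioside GD3, and St8sia5 encodes a sialyltransferase of more complex gangliosides. NCAM, the related protein encoded by Ncam2, and the L1 family proteins L1CAM and NrCAM are immunoglobulin domain proteins that bind partners on the same or the neighbouring membrane. The L1 family is also tied to the membrane skeleton through ankyrins, and NrCAM is a known component of the nodes of Ranvier.

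Before the results, 4 libraries of the MEC at P2 and 2 libraries of the LEC need to be named, because sums of cell type markers set them apart from their labels or their groups. Summed meningeal fibroblast markers (10 genes) separated the layers in nearly all groups. Outside the P2 libraries named here they lay at 279.7 to 1720 CPM in LII and at 30.47 to 366.5 CPM in LDeep. The library labelled MEC LII P2 replicate 1 had 31.8 CPM, and the library labelled MEC LDeep P2 replicate 1 had 1145 CPM. The former also held the highest interneuron marker sum of P2 (1363 CPM) and the highest astrocyte marker sum (2104 CPM), and the latter a layer II marker sum of 910.8 CPM against 380.4 to 567.2 CPM in the other 4 MEC LDeep libraries of that age. The library labelled MEC LII P2 replicate 3 had 48.88 CPM of meningeal markers, while its layer II marker sum (1129 CPM) lay among those of its group. The library labelled MEC LDeep P2 replicate 4 held 1390 CPM of deep layer markers, against 483.4 to 852.1 CPM in the other 4. In the LEC, the library labelled LEC LDeep P45 replicate 4 was the farthest of all 64 from its group, with a chi-square per degree of freedom of 62.1 to 77.68 against the other 3 replicates. It held 1625 CPM of layer II markers against 639.9 to 914.2 CPM in those 3, and 477.8 CPM of oligodendrocyte precursor markers against 259.7 to 302.4 CPM. The library labelled LEC LII P9 replicate 2 had 855.4 CPM of oligodendrocyte markers, against 120.1 to 144.3 CPM in the other 3 of its group. Results that rest on the MEC at P2 are therefore also given without its 4 libraries, and those of the LEC at P9 and P45 without 1 library each where a call changed.

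**Figure D1:**
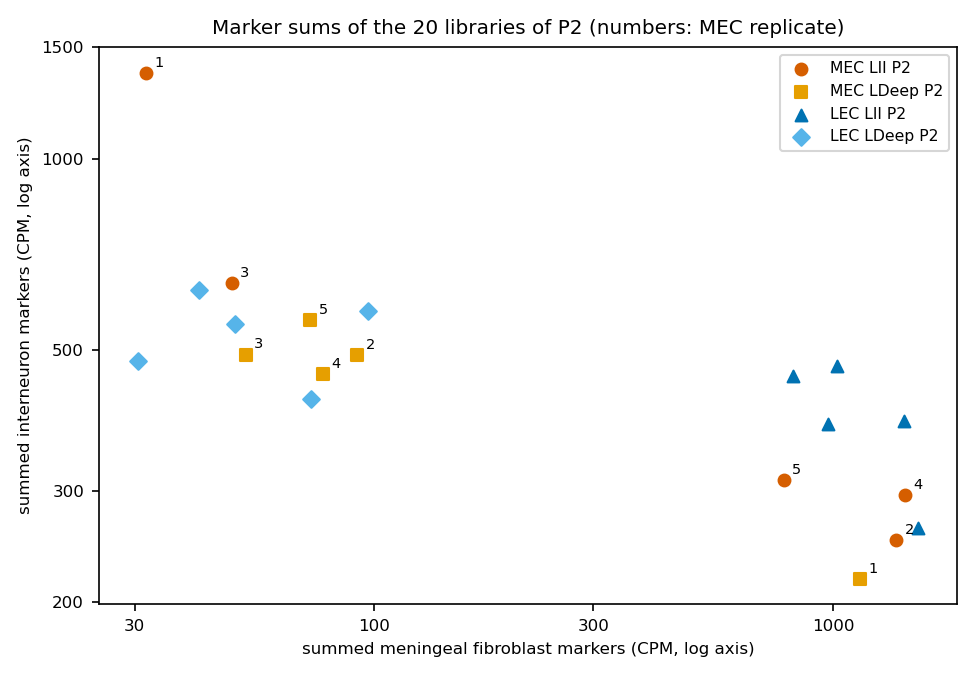
Summed CPM of meningeal fibroblast markers (x, log axis) against summed CPM of interneuron markers (y, log axis) in the 20 libraries of P2, with colour and shape for region and layer and the replicate number beside each MEC library. MEC LII replicates 1 and 3 sit at 31.8 and 48.88 CPM of meningeal markers among the LDeep libraries, and MEC LDeep replicate 1 sits at 1145 CPM among the LII libraries.

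For the polysialyltransferase genes St8sia2 and St8sia4, the 250 bases before their RefSeq start sites are shown here, read 5′ to 3′ on the strand of the gene in build GRCr8. Capitals mark matches to GGGCGG, the core of the GC box, on either strand. The St8sia2 window is chr1:137247754-137248003 on the minus strand and the St8sia4 window is chr9:103532009-103532258 on the minus strand.
St8sia2: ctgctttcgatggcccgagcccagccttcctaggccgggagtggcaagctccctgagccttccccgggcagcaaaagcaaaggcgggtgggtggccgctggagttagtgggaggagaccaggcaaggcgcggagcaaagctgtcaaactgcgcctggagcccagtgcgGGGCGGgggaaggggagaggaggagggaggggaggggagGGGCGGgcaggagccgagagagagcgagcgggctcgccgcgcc
St8sia4: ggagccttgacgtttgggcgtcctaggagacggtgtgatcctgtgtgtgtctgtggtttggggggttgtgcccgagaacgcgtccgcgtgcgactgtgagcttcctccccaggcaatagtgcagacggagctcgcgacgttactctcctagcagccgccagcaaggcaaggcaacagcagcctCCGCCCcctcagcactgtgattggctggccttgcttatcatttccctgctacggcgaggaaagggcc
Both windows lay above the median GC content of all 33469 rat promoters in the table (51.2%), at 70.4% for St8sia2 and 61.6% for St8sia4. GGGCGG matched at 2 places in the St8sia2 window and at 1 place in the St8sia4 window, and 30.5% of all promoters held a match. CCAAT, searched on both strands, matched once in the St8sia4 window (34.0% of all promoters), as did TGACG (18.2% of all promoters). Neither motif had a match in the St8sia2 window. TATAAA and CAGCTG had no match in either. Promoters were matched for 6 of the 9 genes. These are matches of letters, not sites of binding.

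Of the 9 genes, 5 fell from younger to older samples (St8sia2, St8sia4, St8sia1, Ncam1 and L1cam), 2 rose (St8sia5 and Nrcam), and St8sia3 and Ncam2 did not pass the test. The largest fall was that of St8sia2 (LFC -5.66, SE 0.24, adjusted p = 3.7e-28), a 50.4-fold lower level in the older samples, and the largest rise was that of St8sia5 (LFC 2.24, SE 0.10, adjusted p = 5.5e-28), 4.71-fold. Over all samples and genes, 81.6% of the tested genes were called in this comparison (41.0% higher and 40.6% lower), so that 7 called of 9 was near the background share. The median LFC of the 9 genes was -0.61, against 0.01 over all tested genes.

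**Figure D2:**
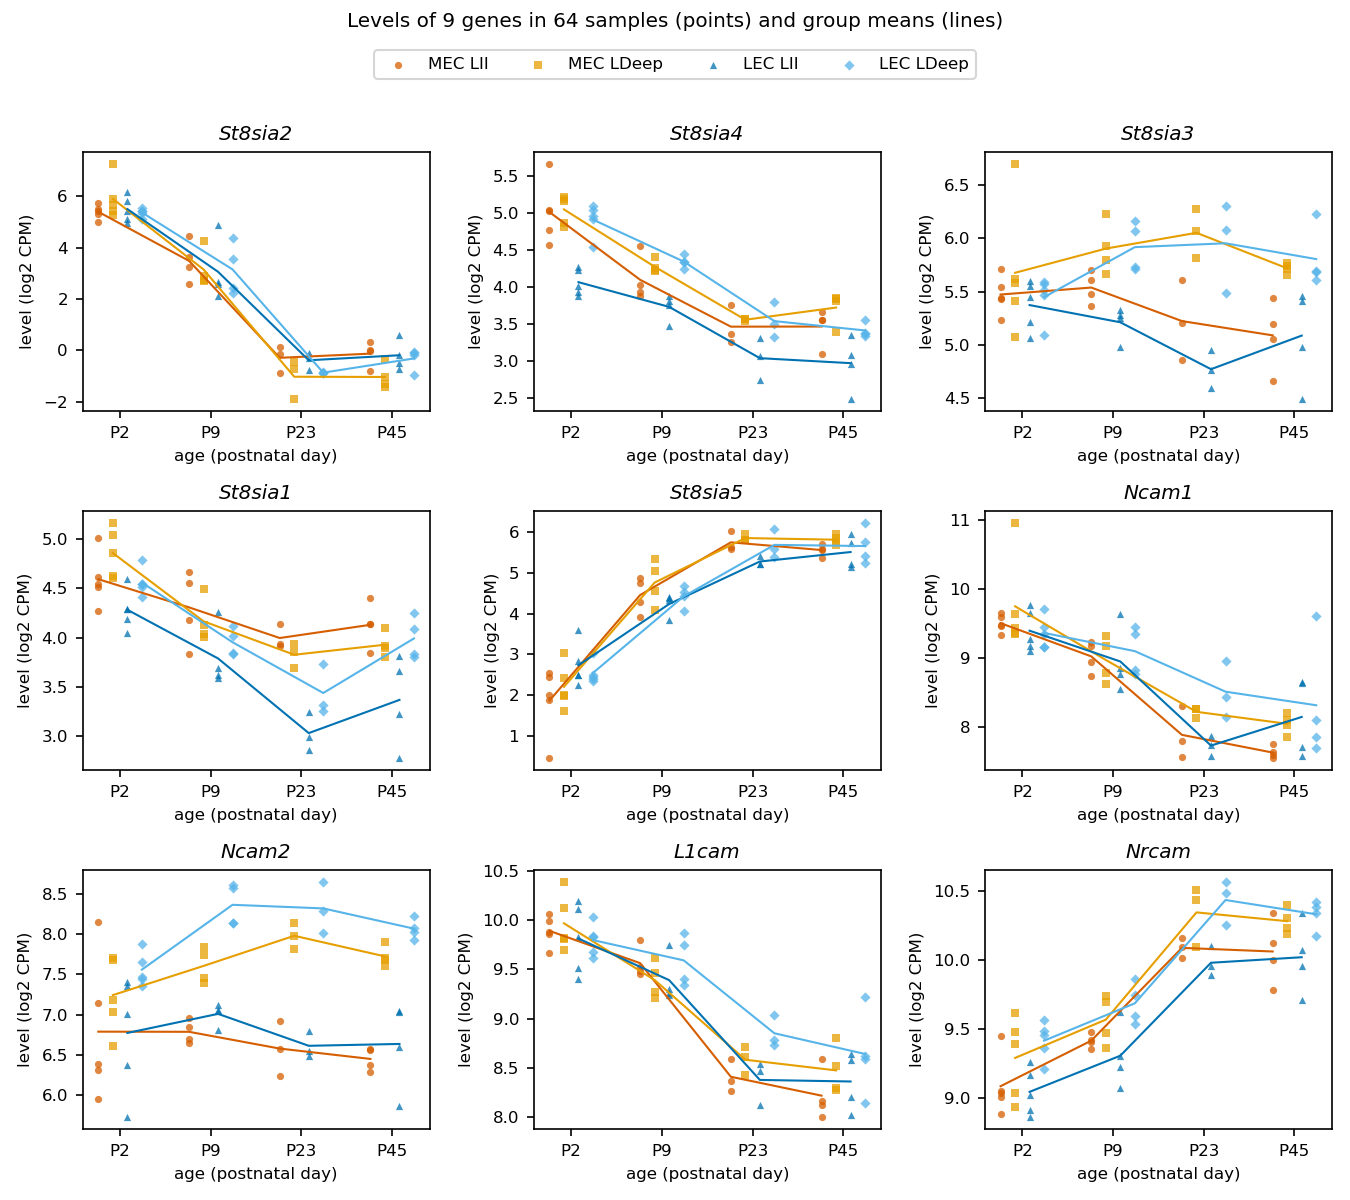
Level in log2 CPM (y) of each of the 9 genes in 64 samples (points) by age (x), with colour and shape for region and layer and a line through each group mean. St8sia2 drops from a median of 5.43 at P2 to -0.74 at P23, and St8sia5 climbs from 2.43 to 5.61. The lines of St8sia3 and Ncam2 lie apart by layer, more widely at P23 than at P2.

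Most of the change came before P23. From P2 to P9 the same 7 genes were called (63.4% of all genes), and from P9 to P23 they were called again in the same directions (64.6% of all genes). Limma also called Ncam2 from P2 to P9. Between P23 and P45 none of the 9 was called by edgeR, DESeq2 or limma, and 1 (St8sia1) had an unadjusted p under 0.05. In that comparison 3.85% of all genes were called, and libraries of P23 and P45 did not overlap for 0.0559% of all genes and for none of the list. These successive comparisons share the libraries of the age between them.

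**Figure D3:**
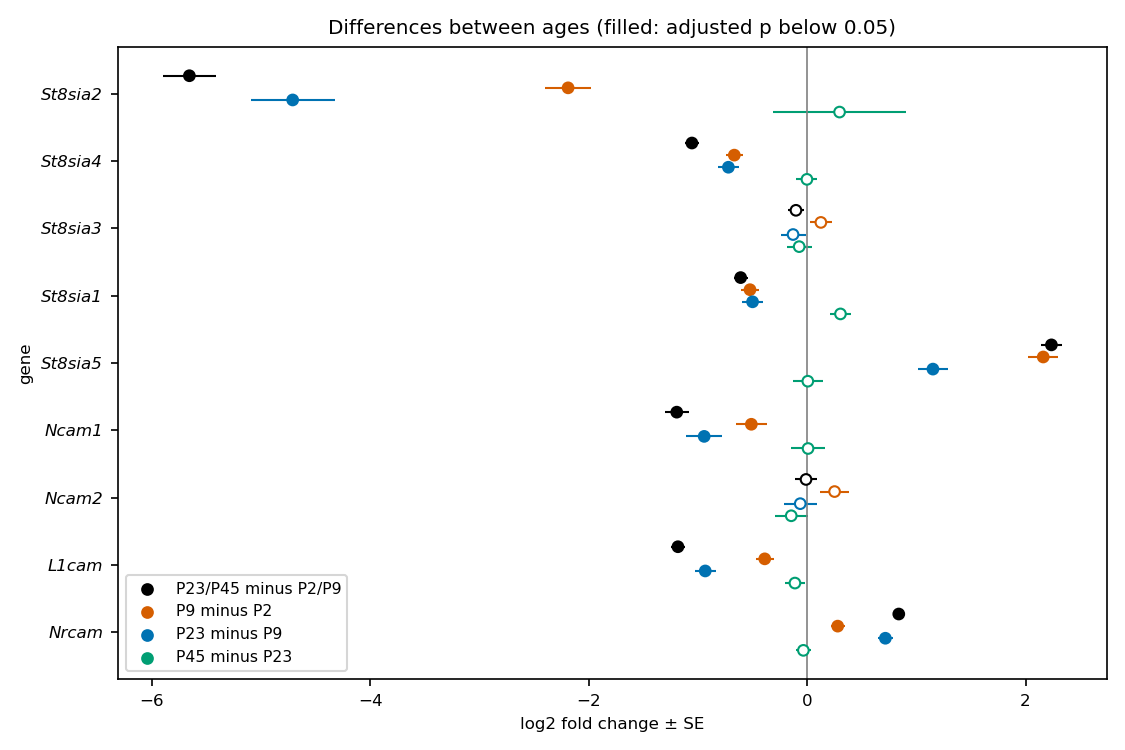
LFC (x, with SE as bars) of each gene (y) between younger and older samples and between successive ages, with filled points where the adjusted p was below 0.05. The points for P45 minus P23 are open for all 9 genes, and the St8sia2 fall from P9 to P23 (-4.71) is the longest of the single steps.

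The order of the genes per length of exon turned over with age. At P2 the mean over the 4 groups in RPKM (CPM per kilobase of exon) was 239.1 for Ncam1, 186.4 for L1cam and 79.3 for Nrcam, with no overlap between the group means of these genes. St8sia2 followed at 44.7 RPKM, ahead of Ncam2 (35.9) and St8sia3 (32.5), but the group means of these 3 overlapped. St8sia4 (20.6) and St8sia1 (16.3) also overlapped, and St8sia5 was last at 4.62 RPKM. By P45 Nrcam led at 154.2 RPKM, followed by Ncam1 (89.1) and L1cam (69.4), whose group means overlapped. St8sia5 had moved to 44.6 RPKM, beside Ncam2 (40.4) and with overlapping group means, and St8sia2 was last at 0.481 RPKM.

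St8sia2, which encodes a polysialyltransferase known from the embryonic and early postnatal brain, lies at chr1:135336374-135406699 on the minus strand of Rn6, with 7 exons. Its level at P2 ran from 4.98 to 7.27 log2 CPM (median 5.43, n = 20). At P9 it ran from 2.11 to 4.87 (median 2.82, n = 16). At P23 all 12 libraries lay between -1.91 and 0.14 (median -0.74), and at P45 all 16 lay between -1.43 and 0.61 (median -0.27). No library of P9 reached the lowest library of P2, and no older library reached the lowest of P9. Such a separation from P2 to P9 was found for 2.92% of all tested genes, from P9 to P23 for 12.8% and between younger and older for 7.42%. The fall was 4.56-fold from P2 to P9 (LFC -2.19, SE 0.21, adjusted p = 2.4e-13) and continued from P9 to P23 (LFC -4.71, SE 0.39, adjusted p = 8.1e-16).

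In counted pairs, St8sia2 had 178 to 685 per library at P2 (median 322), 32 to 185 at P9 (median 60), 0 to 6 at P23 (median 2.5) and 1 to 10 at P45 (median 3.5). Pooled over an age this came to 48.3 CPM at P2 (95% exact Poisson interval 47.2 to 49.5), 10.5 CPM at P9 (9.96 to 11.1), 0.392 CPM at P23 (0.273 to 0.545) and 0.499 CPM at P45 (0.382 to 0.639). The intervals cover counting error only. St8sia2 was thus still counted at the older ages, at a depth where a single library holds a handful of pairs. No difference between layers or regions passed the test. In the MEC, the LFC of LII against LDeep was 1.01 at P23 (SE 1.25, adjusted p = 0.66) and 1.53 at P45 (SE 1.06, adjusted p = 0.41), and LII was above LDeep in 3 of 3 and 4 of 4 same-numbered pairs, by 0.74 ± 0.26 and 0.91 ± 0.63 log2 CPM (SD). At P2, where counts were higher, LII of the MEC was below LDeep in 4 of 5 pairs, by a mean of -0.51 ± 0.79. The LFC there was -0.69 (SE 0.35, adjusted p = 0.21) and ranged from -0.93 to 0.07 over the alternatives. At P9 LII of the MEC was above LDeep in 3 of 4 pairs. In the LEC LII was above in 2 of 5 pairs at P2, 2 of 4 at P9, 3 of 3 at P23 and 1 of 4 at P45. In LDeep at P45 the MEC was below the LEC in 4 of 4 pairs, by a mean of -0.72 ± 0.62.

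One replicate number stood apart at P9. The 4 libraries of P9 replicate 4 held St8sia2 at 4.46 (MEC LII), 4.27 (MEC LDeep), 4.87 (LEC LII) and 4.36 (LEC LDeep) log2 CPM, while the other 12 libraries of that age lay at 2.11 to 3.65. Its summed immature neuron markers (8 genes) were 11380, 13080, 10030 and 13250 CPM in the same order, against 6606 to 9722 CPM in the other libraries of P9. Its summed mature neuron markers (7 genes) were 1717, 1878, 1722 and 1926 CPM, below the 2118 to 3111 CPM of the others. The part of these marker levels in the St8sia2 value was not tested. Without these 4 libraries the St8sia2 LFC was -2.84 from P2 to P9 and -4.09 from P9 to P23, and both remained called.

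St8sia4, the polysialyltransferase gene that is known to stay active in the adult brain, lies at chr9:103117705-103207154 on the minus strand (5 exons). It ran from 3.87 to 5.66 log2 CPM at P2 (median 4.89), from 3.47 to 4.55 at P9 (median 4.22), from 2.73 to 3.79 at P23 (median 3.43) and from 2.48 to 3.85 at P45 (median 3.38). Neighbouring ages overlapped throughout, whereas those of St8sia2 overlapped only between P23 and P45. St8sia4 fell 2.08-fold from younger to older samples (adjusted p = 1.0e-21), by 0.67 on the log2 scale from P2 to P9 (SE 0.08, adjusted p = 3.4e-10) and by 0.72 from P9 to P23 (adjusted p = 3.4e-09).

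Added together per length, the polysialyltransferase genes fell from a median of 60.4 RPKM at P2 (39.5 to 164.8 over 20 libraries) to 19.8 at P9 (11.5 to 36.4), 8.13 at P23 (5.17 to 10.2) and 7.94 at P45 (5.02 to 10.5). The makeup of the sum changed with it. St8sia4 held a median of 34.5% of the summed RPKM at P2 (14.7% to 49.1%), 65.6% at P9 (28.1% to 78.7%), 95.9% at P23 (90.2% to 100%) and 93.5% at P45 (77.5% to 99.1%). The share is a description of transcript levels of these genes and says nothing of enzyme activity.

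**Figure D4:**
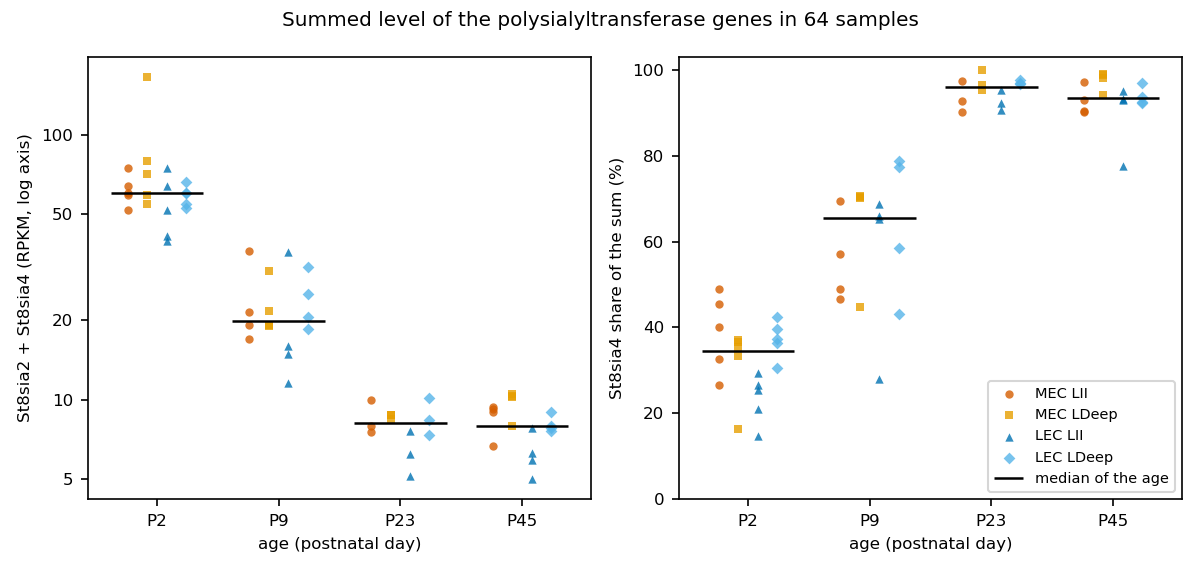
Left, summed St8sia2 and St8sia4 level in RPKM (y, log axis) in each of 64 samples by age (x), with the median of each age as a black line. Right, the St8sia4 share of that sum in percent, whose median rises from 34.5% at P2 to 95.9% at P23.

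St8sia3 lies at chr18:59748766-59755257 on the plus strand (4 exons). Pooled over regions and layers, its medians were 5.49 and 5.68 log2 CPM in the younger ages and 5.54 in both older ones. The ranges were 5.06 to 6.69, 4.99 to 6.22, 4.60 to 6.30 and 4.49 to 6.22 log2 CPM. These pooled values hide a difference between layers in the change with age, given with its limits below. The LFC between younger and older samples was -0.10 (SE 0.08, adjusted p = 0.21), and that from P2 to P9 was 0.13 (SE 0.10, adjusted p = 0.27). The highest value of P2 was the MEC LDeep library of replicate 4 named above. Without the 4 MEC libraries of P2 the rise to P9 was 0.22 (adjusted p = 0.026), without all 4 libraries of P2 replicate 4 it was 0.23 (adjusted p = 0.0255), and without the 4 libraries of P45 replicate 4 the older samples were lower by an LFC of -0.17 (adjusted p = 0.042).

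The ganglioside enzymes moved in opposite directions. St8sia1 (chr4:177065266-177195942, minus strand, 5 exons), the GD3 synthase gene, had medians of 4.55 and 4.03 log2 CPM in the younger ages and 3.71 and 3.87 in the older, and its ranges of 4.04 to 5.17, 3.59 to 4.66, 2.85 to 4.14 and 2.77 to 4.40 overlapped between neighbouring ages. St8sia1 fell 1.52-fold from younger to older (LFC -0.61, SE 0.06, adjusted p = 2.0e-12). Its LFC from P23 to P45 was 0.31 (adjusted p = 0.068), and this difference was called without the 4 MEC libraries of P2 (LFC 0.30, adjusted p = 0.041) and without P45 replicate 1 (LFC 0.38).

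St8sia5 (chr18:73564312-73624941, plus strand, 7 exons) rose at the same ages. Its 20 libraries of P2 lay between 0.45 and 3.60 log2 CPM (median 2.43), below all 16 libraries of P9, which lay between 3.83 and 5.35 (median 4.41). Such a separation from P2 to P9 was found for 2.92% of all tested genes. The libraries of P23 lay between 5.21 and 6.07 (median 5.61) and those of P45 between 5.14 and 6.23. The rise was 4.47-fold from P2 to P9 (LFC 2.16, SE 0.14, adjusted p = 1.9e-19) and 1.15 on the log2 scale from P9 to P23 (adjusted p = 2.0e-10). The lowest single value, 0.45, belonged to the library labelled MEC LII P2 replicate 1. P9 replicate 4, high in St8sia2, was the lowest in St8sia5 among the P9 replicates of every region and layer, at 3.92, 4.09, 3.83 and 4.05. Without it the step from P9 to P23 was 1.00.

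Ncam1, the main carrier of polysialic acid, lies at chr8:53839674-54134731 on the minus strand (19 exons). It ran from 9.10 to 10.97 log2 CPM at P2 (median 9.44), from 8.55 to 9.63 at P9 (median 8.90), from 7.55 to 8.95 at P23 (median 8.14) and from 7.54 to 9.61 at P45 (median 7.85). Neighbouring ages overlapped. Ncam1 fell 2.29-fold from younger to older samples (LFC -1.19, SE 0.11, adjusted p = 1.1e-14), by 0.51 on the log2 scale from P2 to P9 (adjusted p = 1.4e-03) and by 0.94 from P9 to P23 (adjusted p = 1.3e-06). Its 2 widest departures were the MEC LDeep library of P2 replicate 4 at 10.97 and the LEC LDeep library of P45 replicate 4 at 9.61. The former was also the highest of all 64 in St8sia2 (7.27) and St8sia3 (6.69), and the latter is the LEC library of P45 named above. Without P2 replicate 4 the LFC from P2 to P9 was -0.37 (adjusted p = 0.0126). Between layers in the LEC at P45 the Ncam1 LFC was -0.31 (adjusted p = 0.57) with that LEC library and 0.31 (adjusted p = 0.45) without it. The Ncam1 LFC in the LEC at P23 was -0.82 (adjusted p = 0.12), and it was called when that P45 library was left out (LFC -0.86, adjusted p = 0.0423).

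Ncam2, which encodes an NCAM relative known from olfactory axons, lies at chr11:20222057-20705063 on the plus strand (18 exons). Medians of 7.27, 7.26, 7.37 and 7.33 log2 CPM at P2, P9, P23 and P45 were nearly level, and each age spread over about the same wide range, the widest being 5.73 to 8.15 at P2. The LFC between younger and older samples was -0.01 (SE 0.10, adjusted p = 0.93). From P2 to P9 the LFC of 0.25 (SE 0.13, adjusted p = 0.093) did not pass the test. With all libraries kept, the rise was called by limma (LFC 0.35, adjusted p = 0.0202) and by limma with the duplicateCorrelation block (LFC 0.35, adjusted p = 0.0451). Without the 4 MEC libraries of P2 it was 0.40 (adjusted p = 0.0011), and it was also called without P2 replicate 3 (LFC 0.47). The spread within an age followed the layers, as given below.

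The L1 family genes crossed. L1cam (chrX:156911345-156928054, plus strand, 27 exons) ran from 9.41 to 10.39 log2 CPM at P2 (median 9.83) and from 9.21 to 9.87 at P9 (median 9.46). It then ran from 8.13 to 9.04 at P23 (median 8.57) and up to 9.22 at P45 (median 8.41). All libraries of P23 lay below all libraries of P9, and 12.8% of all tested genes were separated between these ages. L1cam fell 2.27-fold from younger to older samples (LFC -1.18, SE 0.07, adjusted p = 1.7e-23), with the larger step from P9 to P23 (LFC -0.93, adjusted p = 2.8e-12). Nrcam (chr6:64297888-64864996, plus strand, 33 exons) rose instead, from a median of 9.18 at P2 (8.86 to 9.61) and 9.47 at P9 (9.07 to 9.86) to 10.12 at P23 (up to 10.56) and 10.21 at P45 (9.70 to 10.42). All libraries of P23 lay above all of P9 (12.8% of all genes separated between these ages). The Nrcam rise was 1.79-fold (LFC 0.84, SE 0.05, adjusted p = 4.5e-23). The 7 genes called between younger and older samples were called under each of the alternative settings in which they were fitted, with LFCs of -5.77 to -5.36 for St8sia2, -1.10 to -1.02 for St8sia4 and 2.15 to 2.32 for St8sia5. The main fit treated same-numbered samples as separate. Over the alternatives, which include sums per replicate number, adjusted p reached at most 1.3e-10 for St8sia2 and 9.8e-07 for St8sia1, the highest of the 7.

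Markers of cell types moved with the same ages. All 8 immature neuron markers fell, with a summed level of 6606 to 18520 CPM in younger and 1192 to 2089 CPM in older libraries. All 7 mature neuron markers rose (749.1 to 3111 CPM against 4146 to 6091 CPM), as did all 8 oligodendrocyte markers (95.29 to 855.4 CPM against 817 to 17300 CPM), and all 5 markers of dividing cells fell (65.44 to 247.9 CPM against 10.49 to 24.06 CPM). All 7 microglia markers rose, and of 7 astrocyte markers 6 rose and 1 fell. Marker genes listed at 0 counts in a whole group were 1 or 2 of the 8 oligodendrocyte markers in 6 groups of P2 and P9. The part of these cell types in the age differences of the 9 genes was not tested.

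Between layers, no gene of the list was higher in LII, against 21.0% (MEC) and 17.4% (LEC) of all genes. In the MEC 3 genes were lower in LII than in LDeep, Ncam2 (LFC -0.94, adjusted p = 4.1e-07), St8sia3 (LFC -0.52, adjusted p = 7.6e-05) and Nrcam (LFC -0.21, adjusted p = 9.1e-03), against 19.9% of all genes lower and 40.8% called in either direction. In the LEC 6 genes were lower, against 21.2% of all genes lower and 38.6% called. These were Ncam2 (LFC -1.28, adjusted p = 2.1e-10), St8sia3 (LFC -0.67, adjusted p = 1.3e-06), St8sia4 (LFC -0.60, adjusted p = 2.9e-07), Nrcam (LFC -0.37, adjusted p = 9.0e-06), St8sia1 (LFC -0.36, adjusted p = 1.7e-03) and L1cam (LFC -0.23, adjusted p = 0.033). The count of 0 higher in LII was the same in both regions by edgeR, DESeq2 and limma, and at an unadjusted p under 0.05. The median LFC of the 9 genes was -0.21 in the MEC and -0.36 in the LEC, beside -0.03 and -0.06 over all genes.

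**Figure D5:**
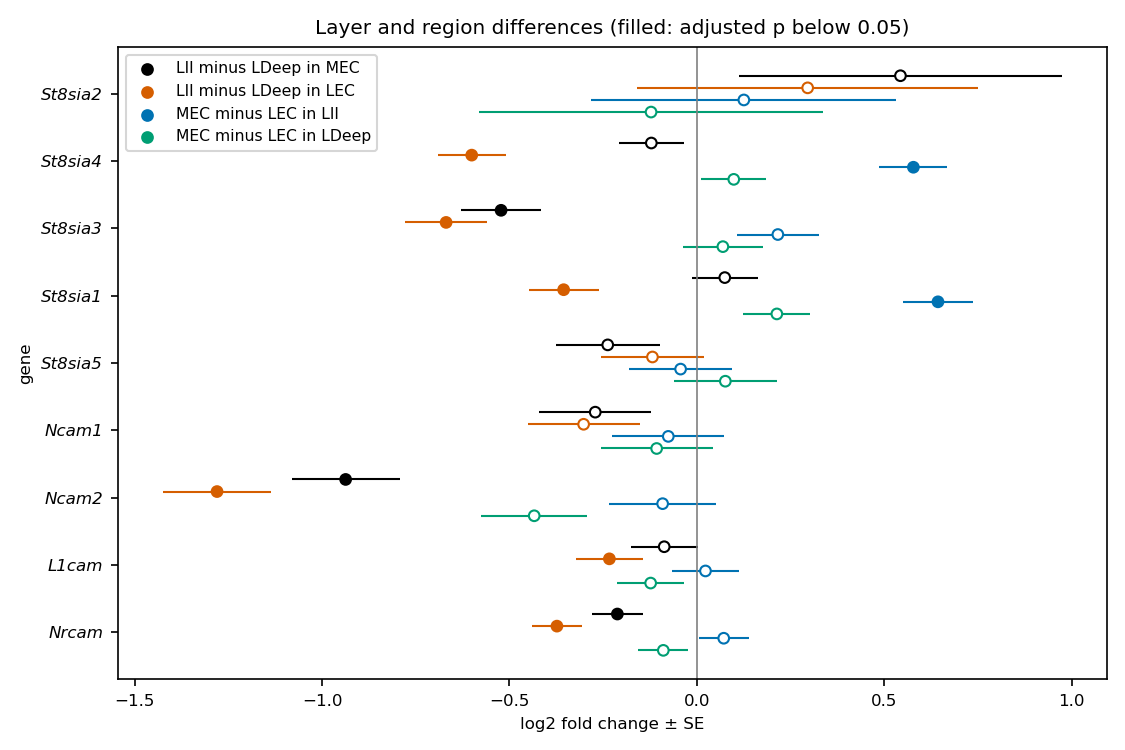
LFC (x, with SE as bars) of each gene (y) between LII and LDeep within the MEC and the LEC, and between MEC and LEC within LII and LDeep, with filled points where the adjusted p was below 0.05. Ncam2 lies farthest to the left in both layer comparisons (-0.94 and -1.28), and St8sia1 and St8sia4 are the filled points to the right, for MEC against LEC in LII.

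Ncam2 gave the widest layer difference. At P23 its MEC levels were 6.93, 6.58 and 6.24 log2 CPM in LII and 7.98, 8.14 and 7.82 in LDeep, and its LEC levels were 6.81, 6.55 and 6.49 in LII and 8.02, 8.29 and 8.65 in LDeep. The share of all genes separated between LII and LDeep in this way was not computed, so no weight is put on the lack of overlap. Within same-numbered samples, LII was above LDeep in 2 of 16 pairs in the MEC and in 1 of 16 in the LEC. By age, Ncam2 was called lower in LII at P9, P23 and P45 in both regions, with LFCs of -0.82, -1.38 and -1.27 in the MEC (adjusted p = 0.034, 2.1e-03 and 1.0e-03) and -1.36, -1.72 and -1.36 in the LEC (adjusted p = 3.8e-04, 2.7e-04 and 5.2e-04). The share of all genes called at single ages was 17.7%, 16.5% and 14.8% in the MEC and 15.5%, 11.3% and 13.3% in the LEC. The MEC call at P9 was lost when any 1 replicate number of P9 was left out (LFC -0.87 to -0.74), and that at P23 without P23 replicate 2 (LFC -1.25).

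At P2 the Ncam2 levels in the MEC were 7.14, 5.96, 8.15, 6.31 and 6.39 log2 CPM in LII and 6.62, 7.68, 7.71, 7.03 and 7.18 in LDeep, in order of replicate number. The layers overlapped through replicates 1 and 3 of LII and replicate 1 of LDeep, the libraries whose meningeal marker sums go against their labels. With all libraries the LFC was -0.27 (adjusted p = 0.51). Without the 4 libraries that stand apart, a setting chosen after seeing the data, it was -1.31 (adjusted p = 1.1e-04). That setting removes the highest Ncam2 value of LII (8.15) and the lowest of LDeep (6.62). Its libraries were set apart by marker sums that themselves differ between layers, so its p-value is no independent test of the layer difference. No gene of the list was called between layers in the MEC at P2 by edgeR, DESeq2 or limma, none had an unadjusted p under 0.05, and 9.23% of all genes were called. In the LEC at P2 the Ncam2 levels ran from 5.73 to 7.41 log2 CPM in LII and from 7.36 to 7.87 in LDeep, with overlap through replicate 2, and LII was lower in 4 of 5 pairs. The LFC of -0.67 (SE 0.25, adjusted p = 0.071) did not pass the test, but the difference was called without P2 replicate 2 (LFC -0.87, adjusted p = 0.0264), without P2 replicate 3 (LFC -0.72, adjusted p = 0.0345) and without the 4 MEC libraries (LFC -0.65, adjusted p = 0.012).

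St8sia3 followed Ncam2. In the MEC it was called lower in LII at P23 (LFC -0.81, adjusted p = 0.015) and P45 (LFC -0.61, adjusted p = 0.042), and in the LEC at P9 (LFC -0.72, adjusted p = 0.013), P23 (LFC -1.22, adjusted p = 6.1e-04) and P45 (LFC -0.67, adjusted p = 0.026). Its levels at P23 in the LEC were 4.77, 4.96 and 4.59 log2 CPM in LII and 5.48, 6.07 and 6.30 in LDeep. No weight is put on the lack of overlap, since the share of all genes so separated was not computed. LII was above LDeep in 2 of 16 same-numbered pairs in each region. The calls at single ages rested on few samples. Without P23 replicate 3 the calls of P23 were lost in both regions (LFC -0.58 in the MEC and -0.98 in the LEC), without P9 replicate 1 or 3 that of P9 in the LEC was lost, and the call of P45 in the MEC was lost under 11 alternatives (adjusted p up to 0.189), among them without any 1 of P45 replicates 1, 2 and 3 and without the count filter. That of P45 in the LEC was lost under 5 (adjusted p up to 0.128), among them without the LEC LDeep library of replicate 4 alone, which had the highest St8sia3 level of its group (6.22 against 5.61 to 5.70), where the LFC was -0.55 (adjusted p = 0.0739). Over all ages the layer difference was called in both regions under each alternative.

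St8sia4 was called lower in LII in the LEC, where it was lower in every one of 16 same-numbered pairs, with a mean difference of -0.62 ± 0.34 on the log2 scale (SD, n = 16). At P2 its LEC levels were 3.87, 4.23, 4.26, 3.93 and 4.01 log2 CPM in LII and 4.92, 4.53, 5.09, 4.95 and 5.04 in LDeep. The share of all genes so separated was not computed, so no weight is put on the lack of overlap. In the MEC at P2 the levels were 5.66, 4.56, 5.02, 4.76 and 5.04 in LII and 5.19, 4.80, 4.86, 5.21 and 5.16 in LDeep, with full overlap. Of these, 5.66 and 5.02 in LII and 5.19 and 5.21 in LDeep belong to the 4 MEC libraries of P2 that stand apart. The LFC there was 0.01 (adjusted p = 0.97), and over the alternatives it ranged from -0.15 to 0.12 without a call. The LEC difference at single ages was called at P2 (LFC -0.86, adjusted p = 4.6e-05, 12.1% of all genes called) and at P9 (LFC -0.62, adjusted p = 7.8e-03), the latter lost without P9 replicate 1 or 2, and also without the LEC LII library of replicate 2 alone (LFC -0.53, adjusted p = 0.0511). Over all ages the MEC difference was -0.12 and was not called, except by limma (LFC -0.28, adjusted p = 0.0132). The difference between the regions' layer differences was itself called (LFC 0.48, SE 0.13, adjusted p = 0.037, 1.25% of all genes called). That call was lost with limma (adjusted p = 0.0877), without the filter on low counts (adjusted p = 0.0539) and without any 1 of 12 of the 16 replicate sets (adjusted p up to 0.195), and without the LEC LII library of P9 replicate 2 alone (LFC 0.46, adjusted p = 0.0559), while its sign held in all alternatives. For St8sia1 the same difference was 0.43 (adjusted p = 0.083), and it was called without the 4 MEC libraries of P2 (LFC 0.48, adjusted p = 0.022).

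Nrcam was lower in LII in all 16 same-numbered pairs of the LEC (mean difference -0.37 ± 0.18, SD) and in 13 of 16 of the MEC. In the LEC it was called at P2 (LFC -0.37, adjusted p = 0.030), P9 (LFC -0.37, adjusted p = 0.046) and P23 (LFC -0.46, adjusted p = 0.040), and the calls at single ages were lost under many of the alternatives, that of P9 also without the LEC LII library of replicate 2 (LFC -0.37, adjusted p = 0.0962). St8sia1 was called in the LEC at P45 (LFC -0.57, adjusted p = 0.029). That call was lost without P45 replicate 1, 2 or 3 (adjusted p = 0.12, 0.0573 and 0.108), without P23 replicate 2 (adjusted p = 0.0579) and with at least 10 counts required in every sample (adjusted p = 0.0738). The L1cam call in the LEC was lost under 14 of 27 alternatives (LFC -0.27 to -0.11, adjusted p up to 0.306). The Nrcam call in the MEC was lost with limma and without P23 replicate 2 (LFC -0.17).

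Cell type markers differed between the layers as well. Of 10 meningeal fibroblast markers 9 were higher in LII and 1 lower in the MEC, and 9 were higher in the LEC. All 6 endothelial markers were higher in LII in both regions, as were 6 of 7 astrocyte markers in the MEC and 5 of 7 in the LEC. Of the 6 deep layer markers all were lower in LII in the MEC and 5 in the LEC, and of the 4 layer II markers tested all 4 were higher in the MEC and 2 in the LEC. Oligodendrocyte markers were lower in LII for 5 of 8 genes in the MEC (median LFC -0.71) and 4 of 8 in the LEC (median LFC -0.40), with none higher. At P23 their sum ran from 3626 to 5238 CPM in LII and from 12450 to 17300 CPM in LDeep of the MEC, and from 1420 to 1926 and 4324 to 7455 CPM in the LEC. At P9 in the LEC, in contrast, 4 of the 8 were higher in LII, where 1 library stood apart in them as given above. Of 6 oligodendrocyte precursor markers 3 were lower and 1 higher in LII in the MEC, and 4 were lower and 1 higher in the LEC. Immature neuron markers were lower in LII for 3 of 8 genes in the MEC and 4 of 8 in the LEC, and of 7 mature neuron markers 2 were lower and 1 higher in the MEC and 3 lower in the LEC. Of 7 interneuron markers 3 were higher and 2 lower in the MEC, and 1 higher and 2 lower in the LEC. Of 7 microglia markers 2 were higher in each region. The part of these cell types in the layer differences of the list was not tested.

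Between regions, St8sia1 and St8sia4 were higher in the MEC than in the LEC within LII. The LFC was 0.64 for St8sia1 (SE 0.09, adjusted p = 6.7e-07) and 0.58 for St8sia4 (SE 0.09, adjusted p = 4.6e-06), against 12.6% of all genes called and 8.38% higher in the MEC. Each was higher in the MEC in 16 of 16 same-numbered pairs, by 0.60 ± 0.34 for St8sia1 and 0.59 ± 0.46 for St8sia4 (SD). The calls held under every alternative in which they were fitted, the MEC libraries of P2 left out included. Markers that were higher in the MEC in the same comparison were 2 of 6 for oligodendrocyte precursors, 2 of 8 for oligodendrocytes, 2 of 7 for mature neurons, 2 of 7 for interneurons (1 lower) and 2 of 4 for layer II, while 2 of 6 deep layer markers were lower. Of the astrocyte, endothelial and meningeal markers none was called. The part of these cell types in the region differences was not tested. In LDeep no gene of the list was called by edgeR (5.78% of all genes), 1 higher and 1 lower had an unadjusted p under 0.05, DESeq2 called 1 lower and limma none. The lower one was Ncam2 (LFC -0.43, SE 0.14, adjusted p = 0.057), below its LEC level in 15 of 16 pairs, which was called without the 4 MEC libraries of P2 (LFC -0.37, adjusted p = 0.028).

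The change with age differed between layers for Ncam2 and St8sia3. Averaged over group means, Ncam2 went from 6.84 in younger to 6.57 log2 CPM in older samples in LII and from 7.69 to 8.02 in LDeep (difference of the changes -0.65, SE 0.20, adjusted p = 0.031). The change within a single layer was not tested. The younger LII mean includes the libraries labelled MEC LII P2 replicates 1 and 3, named above for their marker sums. St8sia3 went from 5.40 to 5.04 in LII and from 5.73 to 5.88 in LDeep (difference of the changes -0.46, SE 0.15, adjusted p = 0.044). Calls of this kind were made for 8.80% of all genes. Without the 4 MEC libraries of P2 the Ncam2 difference was -0.41 and was not called (adjusted p = 0.069), while that of St8sia3 was -0.57 (adjusted p = 1.4e-03). Without the pair of replicate 1 alone, St8sia3 gave -0.43 (adjusted p = 0.061), and without the LEC LII library of P9 replicate 2 it gave -0.46 (adjusted p = 0.0546). With limma the Ncam2 difference was -0.57 (adjusted p = 0.0714). Leaving out 1 replicate set (4 samples) also ended the call of Ncam2 for 3 of the 16 sets and that of St8sia3 for 8. Of 8 oligodendrocyte markers 6 had a lower change with age in LII than in LDeep (median LFC of the difference -1.86), of 4 layer II markers 2 had a higher and 1 a lower one, and of the other lists at most 1 marker was called in each direction. The part of these cell types in the Ncam2 and St8sia3 differences was not tested. No gene of the list differed between MEC and LEC in its change with age by edgeR, DESeq2 or limma, with 1 lower at an unadjusted p under 0.05 and 4.38% of all genes called.

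Of 11 tested genes that supply, move or remove sialic acid, 5 were higher and 5 lower in older samples. Lower were Cmas, which activates sialic acid (LFC -0.61, adjusted p = 2.8e-19), Slc35a1, its carrier into the Golgi (LFC -0.52), and Nans, which makes it (LFC -0.50). Higher were the sialidase genes Neu2 (LFC 0.99), Neu1 (LFC 0.87) and Neu3 (LFC 0.58). In the MEC 3 of the 11 were lower in LII and none higher, led by Neu2 (LFC -0.96), and in the LEC 3 were lower and 1 higher. The background for this list and for those of the next paragraphs is the share of all tested genes. For age, 41.0% were higher and 40.6% lower in older samples. Between layers, 21.0% were higher and 19.9% lower in LII in the MEC, and 17.4% and 21.2% in the LEC. Between regions in LII, 8.38% were higher and 4.26% lower in the MEC.

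Of 12 other ganglioside synthesis genes, 4 were higher and 7 lower in older samples. The lactosylceramide synthase gene B4galt5 (LFC -0.57), St6galnac5 (LFC -0.46) and St3gal1 (LFC -0.42) fell, and St6galnac6 (LFC 0.85), the GM3 synthase gene St3gal5 (LFC 0.59) and St3gal3 (LFC 0.28) rose. Between layers 5 were lower in LII in the MEC, led by St3gal1 (LFC -0.75), and 4 in the LEC, with none higher in either region.

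Partners, sheddases and downstream kinases of NCAM and L1 proteins were 20 tested genes, 7 higher and 9 lower in older samples. Nrp2, which encodes a semaphorin receptor that can itself carry polysialic acid, fell (LFC -2.08, SE 0.10, adjusted p = 5.2e-27), from a median of 7.83 log2 CPM at P2 to 6.30 at P9 and 4.97 at P23. Gap43, a growth cone protein gene (LFC -1.70), and Ncan, which encodes the proteoglycan neurocan that binds NCAM and L1 (LFC -1.69), fell as well. Prnp, encoding the prion protein, a binding partner of NCAM (LFC 1.68), the ankyrin gene Ank1 (LFC 0.69) and Ezr (LFC 0.34) rose. Between layers in the MEC 6 were higher in LII and 4 lower, with Ezr (LFC 0.77) and the GDNF receptor gene Gfra1 (LFC -0.98) at the ends. In the LEC 5 were higher and 5 lower. Between regions in LII 4 were higher in the MEC and 1 lower, with Cntn2 (LFC 0.65) and Nrp2 (LFC -0.43) at the ends.

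Of 22 other neural immunoglobulin adhesion genes tested, 13 were higher and 7 lower in older samples. Thy1, a marker of mature projection neurons (LFC 2.29, adjusted p = 6.5e-38), Icam5, a dendritic adhesion molecule of the telencephalon (LFC 1.94), and Cadm2 (LFC 0.79) rose most, and the contactin gene Cntn6 (LFC -0.84), Cadm1 (LFC -0.55) and Alcam (LFC -0.37) fell most. Thy1 went from a median of 6.49 log2 CPM at P2 to 8.72 at P9 and 9.91 at P23. Between layers 2 were higher and 7 lower in LII in the MEC, with Alcam (LFC 0.65) and Sdk2 (LFC -0.99) at the ends, and 3 were higher and 8 lower in the LEC. Between regions in LII 3 were higher and 3 lower in the MEC, with Lsamp (LFC 0.54) and Negr1 (LFC -1.10) at the ends.

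Over the 16 group means of log2 CPM, the genes of the list fell into the patterns described above. Pearson's r was 0.954 between St8sia2 and L1cam, 0.929 between St8sia2 and Ncam1, 0.985 between Ncam1 and L1cam, -0.95 between St8sia2 and St8sia5, and 0.861 between St8sia3 and Ncam2. Among 11897 genes with a mean of at least 1 CPM, those most like St8sia2 were Igsf9, Pabpc4 and Kctd10 (each 0.995), and those most like St8sia4 were Vps52 (0.971), Dip2c (0.969) and Rad21 (0.967). Most like St8sia3 were Cxxc4 (0.925), Ubash3a (0.91) and Kcna6 (0.903), and most like Ncam1 were Sema4g (0.988), L1cam (0.985) and Zfp512b (0.985). These values are descriptions over 16 groups that share ages, libraries and depth, and carry no test.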

How the data were processed

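Entorhinal cortex RNA of 64 samples was depleted of ribosomal RNA and sequenced as stranded read pairs. Per the file headers and the study's methods, the authors trimmed reads with Trimmomatic 0.33, aligned them to Rn6 with STAR 2.4.0 and counted pairs per RefSeq gene with featureCounts of Subread 1.4.6-p1 by strand, counting a pair that overlapped several genes for each. The values deposited by the authors were raw counts, 1 file per sample, from 3894334 to 11439143 pairs. Overlapping genes can therefore share pairs, but no exon of the 9 genes overlapped an exon of another gene.

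Here, counts were normalized by TMM and tested with edgeR 4.0.16 (quasi-likelihood, filterByExpr, 16 group means, 48 residual degrees of freedom, no block, R 4.3.3), with Benjamini-Hochberg adjustment over 12521 genes and a threshold of 0.05 in each of 19 comparisons. Log2 CPM used a prior count of 2. RPKM used the exon lengths of the count files. Alternatives were DESeq2 1.42.0, limma 3.58.1 (voom, TMM and quantile normalization, which the study's methods name), RLE size factors, other count filters (at least 1 count in all, or at least 10 in every sample), 1 region at a time, blocks for the replicate number, counts summed per replicate number, log2 RPKM, and leaving out each replicate set in turn. The settings that leave out 2 or 4 MEC libraries of P2, or 1 LEC library of P9 or P45, were chosen after seeing the data. The test was checked on simulated counts.

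The members and lists were chosen with earlier results of these data known. All members were described. Of the pathway lists, up to 3 genes per direction with the largest LFC were named for age and up to 1 for layer (MEC) and region (LII), among called genes with a mean of at least 1 CPM. Likeness used the 3 highest correlations of group means for St8sia2, St8sia4, St8sia3 and Ncam1. Promoter sequences came from a RefSeq table of build GRCr8, which differs from Rn6, and gene positions are those of the count files.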

Additional observations from a re-analysis of the deposited data

Results flagged for a closer look

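In 108 sets of 1 gene in 1 group of 4 or 5 samples, 10 held a sample far from the others by Dixon's criterion at the 95% level, which by chance marks about 1 in 20 groups. Of these, 4 belonged to P9 replicate 4. St8sia2 stood at 4.2701 log2 CPM in MEC LDeep (the others 2.707 to 2.9009), St8sia1 at 4.2558 in LEC LII (the others 3.5889 to 3.6864), L1cam at 9.7528 in LEC LII (the others 9.2451 to 9.3059) and St8sia5 at 3.8322 in LEC LII, below the others at 4.3347 to 4.3971.

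At P2, Ncam1 stood at 10.9661 log2 CPM in MEC LDeep replicate 4 (the others 9.3499 to 9.6344), St8sia3 at 5.0966 in LEC LDeep replicate 3 (the others 5.4654 to 5.5902) and St8sia5 at 3.029 in LEC LDeep replicate 2 (the others 2.3471 to 2.5019). At P45, St8sia3 stood at 6.2231 in LEC LDeep replicate 4 (the others 5.6105 to 5.6953), St8sia4 at 3.3865 in MEC LDeep replicate 3 (the others 3.8038 to 3.8527) and St8sia2 at -0.9459 in LEC LDeep replicate 1 (the others -0.1688 to -0.0693), where it had at most 10 counts in any library.

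By interaction terms in edgeR, 3 effects differed between groups, and each of these calls was lost under several of the alternatives, as given above. The St8sia4 difference of LII from LDeep was higher in the MEC than in the LEC by 0.4791 on the log2 scale (adjusted p = 0.0368, 1.25% of all genes called). The change from younger to older samples in LII minus that in LDeep was negative for Ncam2 (difference -0.6484, adjusted p = 0.0312) and for St8sia3 (difference -0.4622, adjusted p = 0.0444). In that comparison 8.8% of all genes were called.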

How the results depend on the processing

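Over the 9 genes and 19 comparisons, 4571 values under alternative settings were computed. Of these, 4413 stayed on the same side of the threshold, 127 lost a call, 31 gained one and 0 calls reversed direction. Values not called in either fit were counted as the same whatever their sign. Among them, the Ncam1 LFC between layers in the LEC at P45 was -0.31 in the main fit and ranged up to 0.31 over the alternatives. The 7 age calls held under every setting in which they were fitted. St8sia2 could not be fitted with at least 10 counts required in every sample.

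Calls of members depended on settings mostly within single ages. In the MEC at P9, 0 members were called with limma, without a count filter, with at least 10 counts or with 1 region alone (against 1). In the MEC at P45, 1 was called without a count filter, with at least 10 counts or with 1 region (against 2), and in the LEC at P2, 1 with limma, RLE, no filter, at least 10 counts or 1 region (against 2). With at least 10 counts, 1 was called in the LEC at P45 (against 3). Between regions in LDeep, 1 was called by DESeq2 and with the replicate block (against 0). The layer difference between regions gave 0 with limma or no filter (against 1), and the age change between layers 1 with limma (against 2).

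Counts of all genes called fell where at least 10 counts were required, which tests fewer genes: to 3312 and 2892 for layers in the MEC and LEC (from 5112 and 4835), to 688, 1418, 1353 and 1090 in the MEC at P2, P9, P23 and P45, and to 711, 1063, 835 and 890 in the LEC. In the MEC at P2, limma gave 672 and 1 region alone 542 (against 1156).

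The replicate number as a block: the labels do not say that a number marks an animal. Deviations from group means correlated over same-numbered samples by a mean of 0.143 between layers and 0.135 between regions, against -0.0487 and -0.0413 otherwise. Of 96 same-numbered pairs 57 had r above 0.1, and 36 of 64 samples were closest to one of their own number. With the replicate block, the layer difference between regions gave 286 genes (against 156), and St8sia5 was also called between layers in the MEC (LFC -0.24, adjusted p = 0.0458) and Ncam2 in the LEC at P2 (LFC -0.74, adjusted p = 0.0179). Between P23 and P45, the duplicateCorrelation block gave 248 genes and sums per replicate number 60 (against 482).

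Settings chosen after seeing the data left out single libraries. Of the MEC at P2, without both of replicate 1, 1782, 2565, 2403 and 2112 genes were called between layers in the MEC at P2, P9, P23 and P45, 2181 and 1705 in the LEC at P9 and P23, 655 between P23 and P45 and 742 for the age change between regions, and without the 4 that stand apart 2259 genes and 1 member in the MEC at P2. Both settings gave 1 member between P23 and P45, 2 members for the layer difference between regions and 1 for the age change between layers. Without the 4, there were 833 genes between P23 and P45, 341 for the layer difference, 1725 for the age change between layers (against 1102) and 1 member between regions in LDeep. Without LEC LDeep P45 replicate 4 alone, 2568 genes were called between layers in the LEC at P45 (against 1665) and 2113 in the MEC at P45, and 1 member in the LEC at P2 (against 2). Without LEC LII P9 replicate 2 alone, 2 members were called in the LEC at P9 (against 4), 0 for the layer difference and 1 for the age change between layers. The cause was not tested.

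Leaving out 1 replicate set at a time gave 694 to 1751, 992 to 2530, 889 to 2369 and 1040 to 2099 genes between layers in the MEC at P2, P9, P23 and P45, and 1089 to 2160, 439 to 1683 and 914 to 2520 in the LEC at P9, P23 and P45. It gave 283 to 629 between P23 and P45, 63 to 218 for the layer difference and 302 to 666 for the age change between regions. Members called ranged over 0 to 1, 1 to 2 and 1 to 2 in the MEC at P9, P23 and P45, 1 to 2, 1 to 4, 1 to 5 and 1 to 4 in the LEC at P2, P9, P23 and P45, 0 to 1 between regions in LDeep, between P23 and P45 and for the layer difference, and 0 to 2 for the age change between layers. Depth limits St8sia2 at the older ages, where 1 pair was worth 0.0874 to 0.2568 CPM.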
